A study of Mus musculus with 40 samples.

Results

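Ribosome biogenesis factors are the proteins that make and process ribosomal RNA and fit it together with ribosomal proteins in the nucleolus. A list of 39 of their genes was followed in mouse splenic B cells cultured with CpG, a DNA mimic of bacterial sequence that B cells sense through Toll-like receptor 9. The members were chosen by gene symbol in the annotation of the array. For each gene the probe with the highest mean over the 40 arrays in the authors' value table was used. Of the 39 members 38 had a named probe among 19057 genes with one, and 35 were among the 9453 genes that passed the filter on dim probes and were tested. Fbl, the methyltransferase of the box C/D particles, has no probe listed under its name. Utp20 and Wdr12 were above background on 0 arrays and Nop16 on 2, both of them Bank1-/- at 6 h, so these 3 were not tested. Of the 35 tested members 33 were above background on all 40 arrays. The exceptions were Nolc1, detected on 20 arrays, and Dkc1, detected on 11, and both of these probes had to be bright in some group to enter the test.

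The 40 Illumina arrays form 8 groups of 5 biological replicates: cells of Bank1-/- mice at 0, 6, 24 and 48 h of CpG and cells of WT mice at 0, 6, 24 and 48 h of CpG. Bank1 encodes an adaptor protein of B cell signalling, and the null line had been crossed back to C57BL/6, the strain given for all 8 groups. The B cells were enriched by depletion of other spleen cells on magnetic beads, no age or sex is given, and the labels name littermates as well as purchased C57BL/6J mice as WT animals. Every later group had CpG and no group was cultured without it, so a change from 0 h cannot be told apart from time in culture. In bulk RNA, fewer cells of a type and less RNA per cell cannot be told apart either.

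Making a ribosome begins with RNA polymerase I, which transcribes one long precursor from the ribosomal DNA repeats. Small nucleolar ribonucleoproteins (snoRNPs) then modify the precursor, the box C/D class by methylation and the box H/ACA class by pseudouridylation. The small subunit processome and a separate set of large subunit factors cut, fold and export both subunits. A resting B cell has a small nucleolus, and an activated one enlarges it before it divides.

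The mean raw intensity of an array lay between 145.7 and 539.9, and 10396 to 16767 of 45281 probes were above background. The number of arrays limits the precision. Bank1 was lower in Bank1-/- than in WT on every array of the same time, with normalized log2 intensities of 7.71 to 10.22 in Bank1-/- at 0 h and 11.29 to 11.72 in WT at 0 h. The Bank1-/- 0 h values lay above the background of their arrays, 6.32 to 6.53, and the probe's position relative to the deletion was not determined here. Of the B cell markers with a probe, 4 of 5 were detected on all arrays of each 0 h and 6 h group, and of 6 T cell markers at least 5 were detected on no array of these groups. Of 4 NK cell markers 1 was detected on all arrays of each of these groups and 3 on none. Of 7 myeloid markers 1 was detected on all arrays in Bank1-/- and 2 in WT at 0 h. At 6 h it was 2 in Bank1-/- and 0 in WT. The summed intensity of the B cell marker probes was 2742 to 4484 in Bank1-/- and 3377 to 3790 in WT at 6 h, below both 0 h groups, and 19700 to 22659 in Bank1-/- and 16687 to 27402 in WT at 48 h, so these markers moved with the time points, and their part in the members' changes was not tested. The WT 6 h arrays were dimmer, with a mean raw intensity of 254 ± 118 against 420 ± 97.9 in Bank1-/- at 6 h (SD, n = 5). At 6 h the summed intensity of 6 erythroid marker probes was 2982 to 6982 in Bank1-/- and 1293 to 2053 in WT. In Bank1-/- 3 of 4 tested erythroid markers were also higher at 6 h than at 0 h (median 1.43) and 3 of 4 lower at 48 h than at 6 h (median -1.78), and in WT 1 of 4 was higher (median 0.23) and 2 lower (median -0.45). The part of erythroid RNA in the members' changes over time and in the 6 h genotype differences was not tested, and a fit with array brightness as a covariate is given beside them.

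The library labelled Bank1-/- 0 h number 5 stood apart. For 32 of 35 members its value lay above the other 4 arrays of its group, for 1 (Pes1) below them and for 2 within them, and 22 of its 35 values fell inside the range of the Bank1-/- 24 h arrays. Its summed B cell marker intensity was 5967, within the 5401 to 6783 of the Bank1-/- 24 h arrays, where the other 4 arrays of its group had 16114 to 22444. Its Bank1 value of 7.71 also lay within the 24 h range of 7.52 to 8.05. In the same group array number 4 had the highest summed NK cell marker intensity, 12218, where the others had 1577 to 6939. Its erythroid sum of 2799 and dendritic cell sum of 1057 were also the highest, where the others had 861 to 1350 and 420 to 714. The main counts of members called that rest on Bank1-/- at 0 h are given below with and without library number 5. Other results that rest on this group include it unless stated otherwise.

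The list rose together at 6 h and lay below its starting level at 48 h in both genotypes. The mean log2 intensity of the 35 members in Bank1-/- cells was 9.18, 9.20, 9.19, 9.35 and 10.10 at 0 h, 10.98, 10.83, 10.89, 10.87 and 10.93 at 6 h, 10.12, 10.12, 10.09, 10.14 and 10.15 at 24 h and 8.45, 8.47, 8.48, 8.51 and 8.58 at 48 h. In WT cells it was 9.23, 9.11, 9.20, 9.19 and 9.16 at 0 h, 10.93, 10.88, 10.82, 10.89 and 10.91 at 6 h, 10.21, 10.26, 10.23, 10.25 and 10.23 at 24 h and 8.58, 8.47, 8.48, 8.46 and 8.50 at 48 h. The 6 h arrays were the highest and the 48 h arrays the lowest of each genotype, and the Bank1-/- 0 h library number 5, at 10.10, lay within the range of the Bank1-/- 24 h arrays. Group means were 9.40 ± 0.40 in Bank1-/- and 9.18 ± 0.04 in WT at 0 h, 10.90 ± 0.06 in Bank1-/- and 10.89 ± 0.04 in WT at 6 h, 10.12 ± 0.02 in Bank1-/- and 10.24 ± 0.02 in WT at 24 h, and 8.50 ± 0.05 in Bank1-/- and 8.50 ± 0.05 in WT at 48 h (SD, n = 5). Without library number 5 the Bank1-/- 0 h mean was 9.23 ± 0.08 (n = 4).

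**Figure D1:**
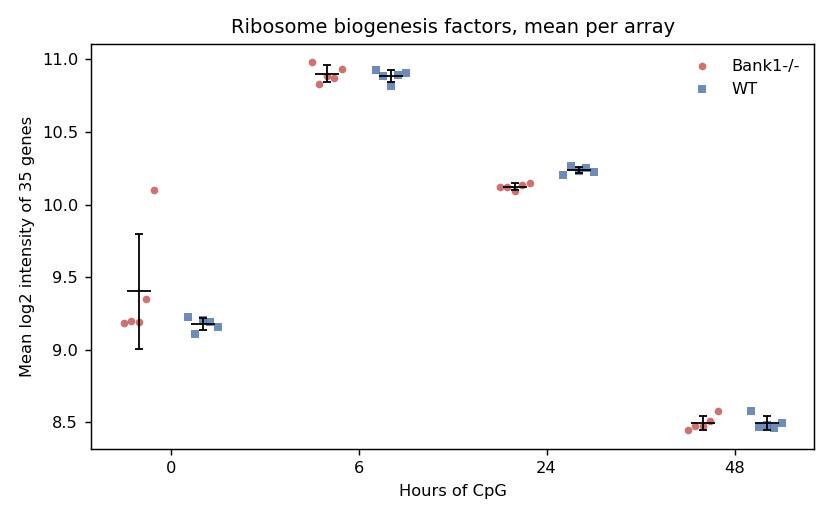
Mean normalized log2 intensity of the 35 tested ribosome biogenesis factors on each array, by hours of CpG. Circles are Bank1-/- arrays and squares WT arrays, and bars give the group mean with its SD (n = 5). Both genotypes peak at 6 h, with means of 10.90 in Bank1-/- and 10.89 in WT, and reach 8.50 at 48 h. The Bank1-/- 0 h array at 10.10 is library number 5.

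At 6 h against 0 h, 35 of 35 members were higher in Bank1-/- and 34 of 35 in WT in the limma fit at an adjusted p under 0.05, and 0 were lower in either genotype. Of all genes tested 31.2% were called higher and 29.5% lower in Bank1-/-, and 33.0% higher and 33.5% lower in WT. The median log2 difference of the members was 1.48 in Bank1-/- and 1.87 in WT, where that of all tested genes was 0.02 in Bank1-/- and -0.01 in WT. Differences given below are log2 differences of group means, the later time minus the earlier or Bank1-/- minus WT, with the standard error (SE) of the fit. Leaving out library number 5, Bank1-/- had 35 of 35 members higher with a median of 1.59 and a background of 34.1%. The 6 h arrays did not overlap the 0 h arrays for 25 members in Bank1-/-, 33 without library number 5, and for 32 in WT. Over all tested genes the 6 h arrays were all higher without overlap for 14.4% in Bank1-/-, 25.4% without library number 5, and 24.1% in WT.

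The member that missed the test in WT was Dkc1, the pseudouridine synthase of the box H/ACA particles, measured by a dim probe. Its arrays read 7.11, 6.34, 7.38, 6.35 and 7.71 at 6 h against 6.25, 6.08, 6.17, 6.33 and 6.42 at 0 h in Bank1-/-, and 6.26, 6.26, 6.52, 6.52 and 6.54 at 6 h against 6.20, 6.08, 6.25, 6.37 and 6.15 at 0 h in WT. The times overlap in both genotypes. The probe was above background on 3 arrays at 6 h and 1 at 0 h in Bank1-/-, and on 1 at 6 h and 0 at 0 h in WT. At 24 h in WT it was above background on 5 arrays, at 6.49 to 7.06. In Bank1-/- the difference was 0.73, SE 0.16, adjusted p = 0.00017, and in WT Dkc1 was not called (adjusted p = 0.257), with too few arrays above background for a fold.

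At 48 h against 6 h, 35 of 35 members were lower in Bank1-/- and 34 of 35 in WT, and 0 were higher. The background was 32.6% lower in Bank1-/- and 32.1% in WT, with 30.8% higher in Bank1-/- and 36.2% in WT. The median log2 difference of the members was -2.59 in Bank1-/- and -2.70 in WT. The 48 h arrays lay below the 6 h arrays without overlap for 35 members in Bank1-/- and 34 in WT, and for 24.6% of all tested genes in Bank1-/- and 24.0% in WT. Dkc1 was again the member not called in WT (adjusted p = 0.0706). At 48 h Dkc1 and Nolc1 were above background on 0 arrays of either genotype. In Bank1-/- Nolc1 was above background on 5 arrays at 6 h, so its fall there is a bound, at least 2.18-fold. At 6 h Dkc1 was above background on 3 arrays in Bank1-/- and 1 in WT, and Nolc1 on 2 in WT. Because part of these 6 h groups was itself under background, no fold is given for them.

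**Figure D2:**
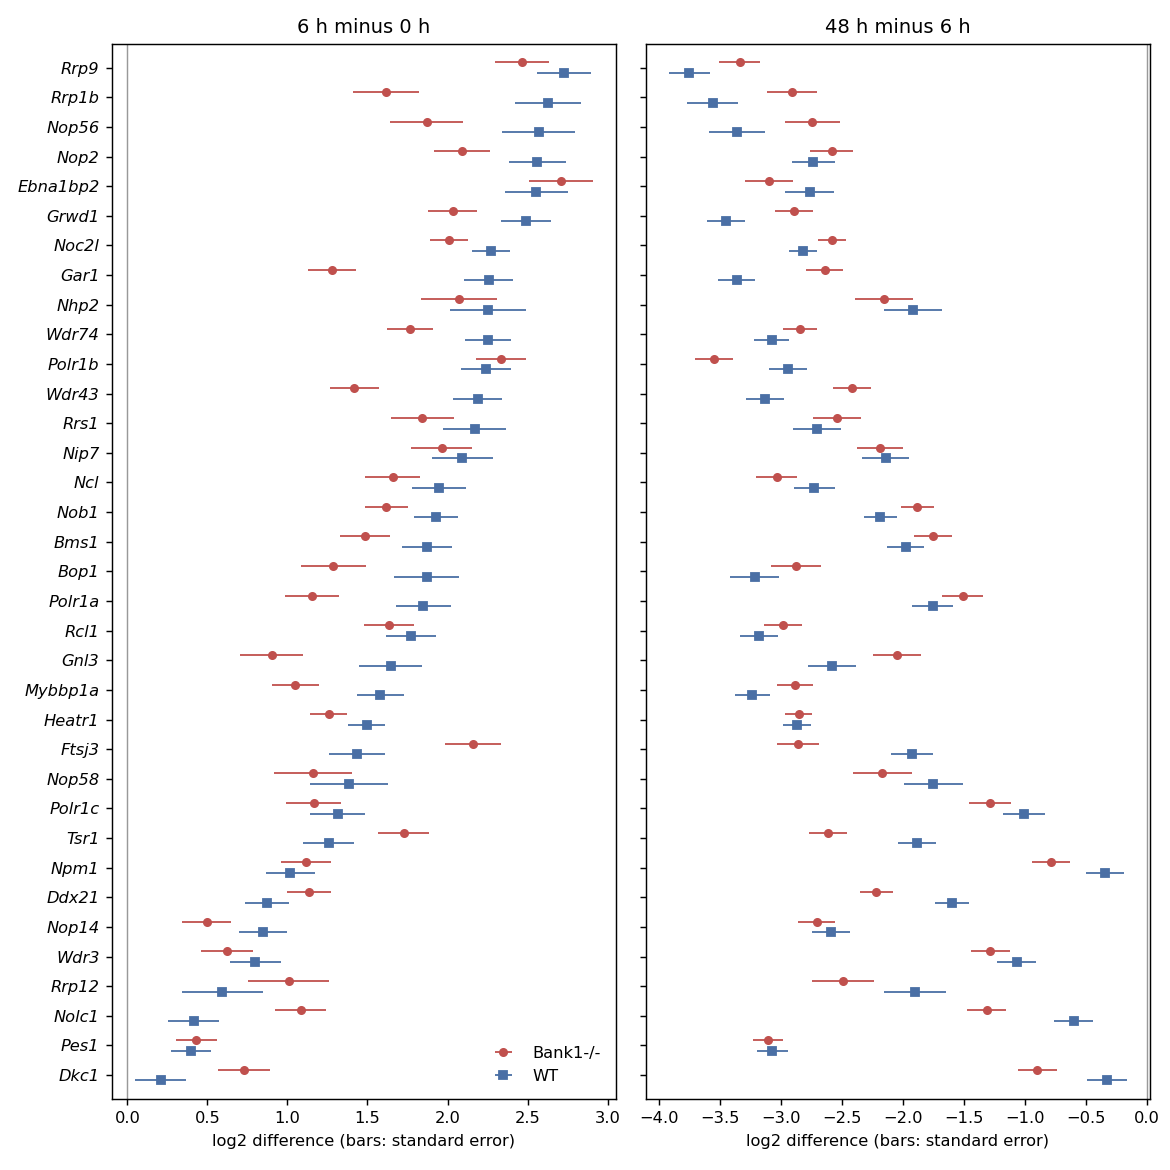
Log2 difference of each of the 35 tested members at 6 h minus 0 h (left) and at 48 h minus 6 h (right). Circles are Bank1-/-, squares WT, and bars the standard error of the fit. All points on the left are above 0 and all on the right below 0, from Dkc1 at 0.21 to Rrp9 at 2.73 in WT on the left, and from Npm1 at -0.78 to Polr1b at -3.55 in Bank1-/- on the right. The right-hand points of Dkc1 and Nolc1 rest on 48 h arrays that were not above background.

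The fall ran over both later intervals. From 6 to 24 h 30 of 35 members were lower in Bank1-/- (background 27.9% lower and 23.9% higher) and 21 of 35 in WT (background 26.0% lower and 31.3% higher), with medians of -0.66 in Bank1-/- and -0.63 in WT. From 24 to 48 h 32 were lower in Bank1-/- (background 25.6% lower and 28.3% higher) and 35 in WT (background 27.0% lower and 26.6% higher), with medians of -1.67 in Bank1-/- and -1.66 in WT. At 24 h the median member kept 53.3% of its 6 h rise in Bank1-/-, or 60.9% without library number 5, and 64.9% in WT. All 35 members had their highest mean at 6 h in Bank1-/-. In WT 31 did, and Nop14, Npm1, Rrp12 and Dkc1 were highest at 24 h.

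Most members ended below where they began in normalized intensity, which does not measure the amount of RNA per cell. At 48 h against 0 h 25 of 35 were lower and 0 higher in Bank1-/- (background 25.6% lower and 25.4% higher), and 22 were lower and 1 higher in WT (background 26.0% lower and 29.0% higher). The medians were -0.88 in Bank1-/- and -0.70 in WT. Leaving out library number 5, Bank1-/- had 24 lower and 1 higher with a median of -0.64 (background 29.5% lower and 29.8% higher). The members whose call changed were Npm1, called higher without it, and Nop2, which was -0.50, SE 0.18, adjusted p = 0.0184 with it and -0.22, SE 0.13, adjusted p = 0.145 without it.

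**Figure D3:**
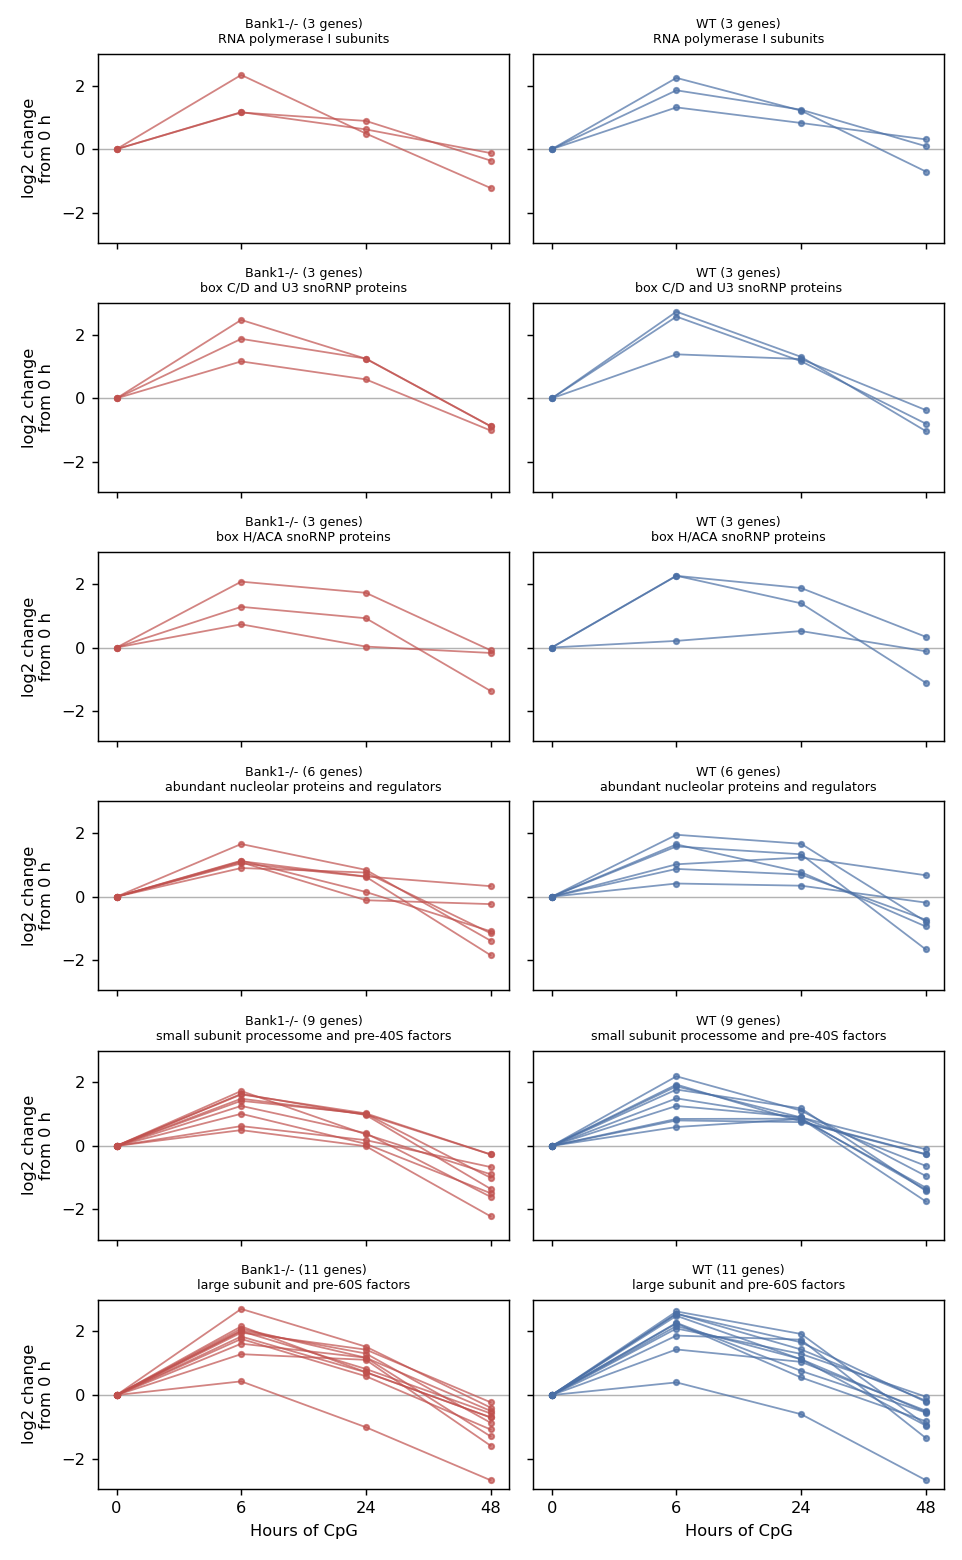
Change of each member's mean log2 intensity from 0 h, by hours of CpG, with 1 line for a gene. Rows are the 6 role classes, with Bank1-/- on the left and WT on the right. Lines rise to 6 h in every class, and the lowest line at 48 h is Pes1, at -2.68 in Bank1-/- and -2.67 in WT.

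Since the members rose together, their promoters were searched for CACGTG, the E-box sequence that Myc-Max and related dimers bind. The windows are those of RefSeq on GRCm38.p6, 250 bases before to 50 bases after a start, and 34 of the 39 members have one. CACGTG reads the same on both strands. It was found for 7 of 34 members, or 20.6%: Mybbp1a, Utp20, Wdr43, Tsr1, Pes1, Nop2 and Grwd1. The 34 include Utp20, Wdr12 and Nop16, which were too dim to test, so no rise was seen for them. Of all genes with a window 2187 of 27025 hold it, or 8.09%. That background includes genes not detected in these cells, and the share among tested genes was not computed. Counted by window, the shares were 7 of 38 among members (18.4%) and 2349 of 32851 overall (7.15%). A match is only a match of letters. The windows of 4 members described by array below are printed with CACGTG in capitals, to show where it lies: its first base is at position 41 after the start in Mybbp1a, 18 in Wdr43, 35 in Grwd1 and 25 in Tsr1, counting the first transcribed base as 1.
Mybbp1a, chr11:72441077-72441376, plus strand: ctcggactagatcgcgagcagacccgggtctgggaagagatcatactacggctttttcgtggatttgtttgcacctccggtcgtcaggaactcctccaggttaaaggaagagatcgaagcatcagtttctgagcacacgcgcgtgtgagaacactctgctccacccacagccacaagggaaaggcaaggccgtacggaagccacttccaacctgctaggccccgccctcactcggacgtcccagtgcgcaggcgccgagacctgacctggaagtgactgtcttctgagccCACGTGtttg
Wdr43, chr17:71615965-71616264, plus strand: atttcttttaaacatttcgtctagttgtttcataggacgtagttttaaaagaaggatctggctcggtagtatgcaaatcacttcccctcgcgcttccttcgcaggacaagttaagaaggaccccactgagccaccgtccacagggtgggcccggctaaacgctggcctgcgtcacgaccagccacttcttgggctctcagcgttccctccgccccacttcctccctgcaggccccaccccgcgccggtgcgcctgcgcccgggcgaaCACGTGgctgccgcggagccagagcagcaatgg
Grwd1, chr7:45830740-45831039, minus strand: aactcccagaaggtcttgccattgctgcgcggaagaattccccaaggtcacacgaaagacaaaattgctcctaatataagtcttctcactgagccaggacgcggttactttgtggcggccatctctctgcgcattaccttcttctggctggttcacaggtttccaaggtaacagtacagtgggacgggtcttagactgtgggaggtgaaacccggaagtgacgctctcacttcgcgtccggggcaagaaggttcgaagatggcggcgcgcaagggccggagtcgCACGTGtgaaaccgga
Tsr1, chr11:74897830-74898129, plus strand: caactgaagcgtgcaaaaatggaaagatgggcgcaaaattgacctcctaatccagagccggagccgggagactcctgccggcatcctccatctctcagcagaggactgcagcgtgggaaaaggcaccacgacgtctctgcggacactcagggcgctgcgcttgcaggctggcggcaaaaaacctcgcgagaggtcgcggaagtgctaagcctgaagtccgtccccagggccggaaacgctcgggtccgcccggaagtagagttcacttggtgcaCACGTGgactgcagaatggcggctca
Of the printed members Grwd1 changed most at 6 h, with a log2 difference of 2.03 in Bank1-/- and 2.49 in WT. Rrp9 and Polr1b, whose windows hold no CACGTG, had 2.47 and 2.33 in Bank1-/- and 2.73 and 2.24 in WT. These members are examples, and whether CACGTG goes with the size of a rise was not tested.

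RNA polymerase I was measured through 3 subunits, and all 3 rose at 6 h in both genotypes. Polr1b encodes the second largest subunit and was read by probe ILMN_2723483. Polr1b had Bank1-/- log2 intensities of 8.26, 8.42, 8.20, 8.24 and 9.07 at 0 h, 11.03, 10.49, 10.87, 10.57 and 10.90 at 6 h, 9.11, 8.69, 9.04, 8.98 and 8.81 at 24 h, and 7.24, 7.43, 7.36, 7.14 and 6.90 at 48 h. The WT arrays read 8.10, 8.18, 8.14, 7.70 and 7.93 at 0 h, 9.95, 10.18, 9.98, 10.12 and 11.02 at 6 h, 9.34, 9.21, 9.09, 9.26 and 9.20 at 24 h, and 7.21, 7.41, 7.33, 7.13 and 7.44 at 48 h. In both genotypes every 6 h array lay above every array of the other times and every 48 h array below them, and within the WT 6 h group array number 5 was highest. The 6 h difference was 2.33, SE 0.16, adjusted p = 2.4e-15 in Bank1-/- and 2.24, SE 0.16, adjusted p = 4.5e-15 in WT. From 6 to 48 h it changed by -3.55, SE 0.16, adjusted p = 3.9e-21 in Bank1-/- and by -2.94, SE 0.16, adjusted p = 8.7e-19 in WT.

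Polr1a encodes the largest subunit, which carries the catalytic centre (probe ILMN_2700107). The Bank1-/- log2 intensities of Polr1a were 9.71, 9.74, 9.85, 10.37 and 10.65 at 0 h, 10.95, 11.21, 11.07, 11.38 and 11.46 at 6 h, 10.63, 11.31, 10.46, 11.08 and 11.26 at 24 h, and 9.63, 9.95, 9.56, 9.39 and 9.99 at 48 h. WT cells had 9.37, 9.48, 9.57, 9.58 and 9.85 at 0 h, 11.52, 11.75, 11.44, 11.52 and 10.86 at 6 h, 10.65, 10.72, 10.93, 10.88 and 10.88 at 24 h, and 9.42, 9.83, 9.72, 9.60 and 9.75 at 48 h. The 6 h arrays were above the 0 h arrays without overlap, the 24 h arrays overlapped those of 6 h, and the 48 h arrays overlapped those of 0 h, in each genotype. The difference at 6 h against 0 h was 1.15, SE 0.17, adjusted p = 3.3e-07 in Bank1-/- and 1.85, SE 0.17, adjusted p = 6.0e-12 in WT. At 48 h against 0 h it was -0.36, SE 0.17, adjusted p = 0.0778 in Bank1-/- and 0.09, SE 0.17, adjusted p = 0.675 in WT. Polr1c, which polymerases I and III share, changed by 1.16 at 6 h in Bank1-/- and 1.31 in WT, and at 48 h against 0 h by -0.12 and 0.31, which did not pass.

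Among the proteins of the box C/D and U3 snoRNPs, 3 of 4 were tested and all 3 rose at 6 h in both genotypes. Rrp9 binds the U3 snoRNA that guides the first cuts of the precursor, and had the largest rise of the whole list in WT (probe ILMN_1223551). Its log2 intensities in Bank1-/- cells were 8.57, 8.45, 8.47, 8.23 and 9.60 at 0 h, 11.46, 11.37, 11.13, 11.30 and 10.37 at 6 h, 9.90, 9.95, 9.86, 9.77 and 10.06 at 24 h, and 7.91, 7.59, 7.67, 8.03 and 7.73 at 48 h. On the WT arrays it was at 8.86, 8.75, 8.76, 8.67 and 8.48 at 0 h, 11.60, 11.19, 11.42, 11.39 and 11.56 at 6 h, 9.95, 10.11, 10.12, 9.85 and 10.02 at 24 h, and 7.74, 7.73, 7.72, 7.57 and 7.62 at 48 h. The 4 times did not overlap in either genotype, with 6 h highest, then 24 h, 0 h and 48 h. Rrp9 was 5.52-fold higher at 6 h than at 0 h in Bank1-/- and 6.62-fold in WT (2.47, SE 0.17, adjusted p = 2.7e-15 in Bank1-/-, 2.73, SE 0.17, adjusted p = 1.2e-16 in WT). At 48 h it was 10.1-fold lower than at 6 h in Bank1-/- and 13.5-fold lower in WT.

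Nop56 is a core scaffold of the box C/D particle (probe ILMN_1245860). Bank1-/- arrays had Nop56 at log2 intensities of 8.75, 9.09, 8.85, 8.11 and 10.01 at 0 h, 11.39, 11.22, 10.38, 11.18 and 9.99 at 6 h, 10.00, 10.37, 9.86, 10.48 and 10.35 at 24 h, and 8.33, 7.91, 8.00, 8.24 and 7.96 at 48 h. Arrays of WT cells gave 9.54, 8.67, 8.73, 8.89 and 8.86 at 0 h, 11.64, 11.54, 11.36, 11.47 and 11.54 at 6 h, 10.13, 10.02, 10.27, 9.94 and 10.16 at 24 h, and 8.36, 8.05, 8.17, 7.77 and 8.36 at 48 h. In WT no 2 times overlapped. In Bank1-/- array number 5 at 6 h lay just under array number 5 at 0 h, so these times overlapped. The difference at 6 h was 1.87, SE 0.23, adjusted p = 6.9e-09 in Bank1-/- and 2.57, SE 0.23, adjusted p = 2.5e-12 in WT. Nop58, its partner in the particle, differed by 1.16 in Bank1-/- and 1.38 in WT.

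Of the box H/ACA proteins Gar1 and Nhp2 rose at 6 h in both genotypes, and Dkc1 is described above. Gar1, a component of the pseudouridylation particle, was read by probe ILMN_1226280. Log2 intensities in Bank1-/- were 11.04, 10.97, 10.99, 11.52 and 12.13 at 0 h, 12.62, 12.46, 12.36, 12.62 and 12.99 at 6 h, 12.12, 12.47, 11.98, 12.27 and 12.42 at 24 h, and 9.84, 9.86, 9.84, 10.07 and 10.23 at 48 h. The values in WT were 10.71, 10.98, 10.93, 10.87 and 10.97 at 0 h, 13.26, 13.44, 13.12, 13.06 and 12.85 at 6 h, 12.04, 12.32, 12.38, 12.32 and 12.35 at 24 h, and 9.71, 9.97, 9.79, 9.74 and 9.69 at 48 h. Every 48 h array lay below every 0 h array in both genotypes. At 24 h the Bank1-/- arrays overlapped those of 6 h, and the WT arrays did not. At 6 h against 0 h the difference was 1.28, SE 0.15, adjusted p = 3.3e-09 in Bank1-/- and 2.26, SE 0.15, adjusted p = 1.3e-15 in WT. Gar1 fell 6.25-fold from 6 to 48 h in Bank1-/- (-2.64, SE 0.15, adjusted p = 7.6e-18) and 10.3-fold in WT (-3.37, SE 0.15, adjusted p = 4.9e-21).

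Nhp2 belongs to the same particle and also to telomerase (probe ILMN_2679077). For Nhp2 the Bank1-/- arrays gave log2 intensities of 9.86, 9.71, 9.75, 10.08 and 11.94 at 0 h, 12.20, 12.55, 12.32, 12.43 and 12.19 at 6 h, 11.96, 11.90, 12.00, 12.03 and 12.05 at 24 h, and 10.35, 9.91, 10.43, 10.26 and 9.96 at 48 h. WT arrays were at 10.16, 9.88, 10.41, 10.09 and 9.62 at 0 h, 12.14, 12.44, 12.45, 12.23 and 12.16 at 6 h, 11.95, 11.70, 11.92, 11.92 and 12.02 at 24 h, and 11.03, 10.09, 10.34, 10.01 and 10.38 at 48 h. Library number 5 at 0 h read 11.94 where the other 4 arrays were between 9.71 and 10.08, and lay within the 24 h range. At 24 h Nhp2 kept 83.1% of its rise in Bank1-/- and 83.0% in WT, and at 48 h its arrays overlapped those of 0 h in both. Between 6 h and 0 h the difference was 2.07, SE 0.24, adjusted p = 1.8e-09 in Bank1-/-, 2.49, SE 0.15, adjusted p = 5.9e-18 without library number 5, and 2.25, SE 0.24, adjusted p = 1.6e-10 in WT. The 48 h difference from 0 h was -0.09, SE 0.24, adjusted p = 0.79 in Bank1-/- and 0.34, SE 0.24, adjusted p = 0.236 in WT.

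**Figure D4:**
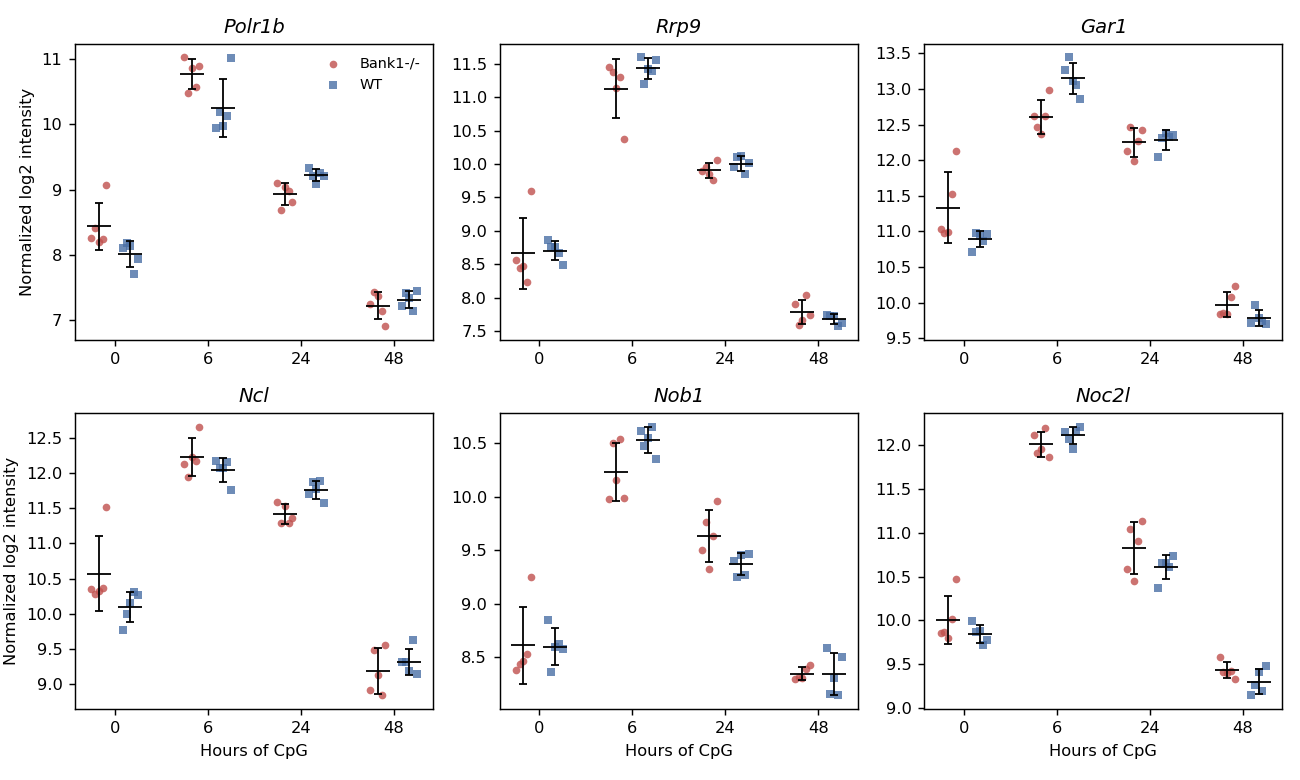
Normalized log2 intensity on every array of 6 members, 1 from each role class, by hours of CpG. Circles are Bank1-/- arrays and squares WT arrays, with bars for the group mean and SD (n = 5). The group means are highest at 6 h in each panel, and the highest Bank1-/- 0 h circle of each panel is library number 5, for example 11.52 for Ncl.

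The abundant nucleolar proteins and regulators numbered 6, and all 6 rose at 6 h in both genotypes. Ncl encodes nucleolin, which binds the ribosomal RNA precursor and its genes (probe ILMN_2693976). Ncl had Bank1-/- log2 intensities of 10.35, 10.28, 10.32, 10.37 and 11.52 at 0 h, 12.13, 11.94, 12.22, 12.17 and 12.66 at 6 h, 11.59, 11.29, 11.53, 11.29 and 11.36 at 24 h, and 8.91, 9.49, 9.14, 8.84 and 9.56 at 48 h. The WT arrays read 9.77, 9.99, 10.16, 10.30 and 10.26 at 0 h, 12.17, 12.07, 12.08, 12.16 and 11.76 at 6 h, 11.70, 11.87, 11.77, 11.89 and 11.58 at 24 h, and 9.31, 9.32, 9.18, 9.62 and 9.14 at 48 h. At 48 h all arrays lay below all 0 h arrays in both genotypes. At 24 h the Bank1-/- arrays lay below those of 6 h, and in WT the 2 times overlapped. Its rise at 6 h was 1.66, SE 0.17, adjusted p = 1.2e-10 in Bank1-/- and 1.95, SE 0.17, adjusted p = 1.3e-12 in WT. From 6 to 48 h Ncl changed by -3.04, SE 0.17, adjusted p = 3.6e-18 in Bank1-/- and -2.73, SE 0.17, adjusted p = 7.1e-17 in WT.

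Mybbp1a, whose protein binds Myb and takes part in ribosomal RNA processing, was read by probe ILMN_2987339, and its promoter window is the first printed above. The Bank1-/- log2 intensities of Mybbp1a were 11.20, 11.15, 11.29, 11.35 and 12.06 at 0 h, 12.30, 12.26, 12.59, 12.38 and 12.76 at 6 h, 12.05, 12.26, 11.92, 11.88 and 12.07 at 24 h, and 9.47, 9.43, 9.34, 9.69 and 9.92 at 48 h. WT cells had 10.63, 10.97, 10.71, 10.99 and 11.12 at 0 h, 12.73, 12.70, 12.27, 12.56 and 12.05 at 6 h, 12.19, 12.37, 12.05, 12.37 and 12.09 at 24 h, and 8.99, 9.31, 9.30, 9.36 and 9.17 at 48 h. The 48 h arrays were the lowest of each genotype, and the 24 h arrays overlapped those of 6 h. At 0 h every Bank1-/- array was above every WT array, the nearest at 11.15 and 11.12. At 6 h against 0 h Mybbp1a rose by 1.05, SE 0.15, adjusted p = 9.8e-08 in Bank1-/- and by 1.58, SE 0.15, adjusted p = 6.2e-12 in WT. By 48 h it differed from 0 h by -1.84, SE 0.15, adjusted p = 4.9e-13 in Bank1-/- and -1.66, SE 0.15, adjusted p = 5.3e-12 in WT. A weaker probe of the gene, detected on 29 arrays, fell by 0.53 at 6 h in Bank1-/- (adjusted p = 0.0306) and rose by 0.96 in WT (adjusted p = 0.000164), so the probes of Mybbp1a disagreed in Bank1-/-.

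Npm1 encodes nucleophosmin, a nucleolar chaperone that also has roles in export and at the centrosome, and it was singled out after its values were seen as the 1 member called above its starting level at 48 h. Its log2 intensities in Bank1-/- cells were 12.94, 13.06, 12.93, 13.08 and 14.16 at 0 h, 14.57, 14.25, 14.37, 14.17 and 14.39 at 6 h, 14.15, 13.61, 14.24, 13.70 and 13.65 at 24 h, and 13.59, 13.87, 13.64, 13.44 and 13.28 at 48 h. On the WT arrays it was at 13.06, 12.96, 13.23, 12.96 and 13.05 at 0 h, 14.01, 13.93, 13.94, 14.10 and 14.38 at 6 h, 14.39, 14.29, 14.21, 14.29 and 14.25 at 24 h, and 13.73, 13.83, 13.81, 13.63 and 13.64 at 48 h. In WT the 24 h arrays overlapped those of 6 h, and all 48 h arrays stayed above all 0 h arrays. In Bank1-/- library number 5 brought the 0 h range into that of 48 h. From 0 h to 48 h the difference was 0.33, SE 0.15, adjusted p = 0.0712 in Bank1-/-, 0.56, SE 0.12, adjusted p = 7.9e-05 without library number 5, and 0.67, SE 0.15, adjusted p = 0.000341 in WT. Ddx21, a helicase that joins polymerase I transcription to processing, Gnl3, which encodes nucleostemin, and the dim probe of Nolc1, a carrier of snoRNPs, rose by 1.13, 0.90 and 1.08 in Bank1-/- and by 0.87, 1.64 and 0.41 in WT. Nolc1 was above background on 2 arrays at 0 h and 5 at 6 h in Bank1-/-. In WT it was above background on 4 arrays at 0 h and only 2 at 6 h, so its rise there is uncertain.

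The small subunit class held 10 members, of which 9 were tested, and all 9 rose at 6 h and fell by 48 h in both genotypes. Nob1, the endonuclease that makes the last cut of the small subunit RNA, was read by probe ILMN_2965991. Bank1-/- arrays had Nob1 at log2 intensities of 8.38, 8.44, 8.47, 8.53 and 9.25 at 0 h, 9.97, 10.50, 10.15, 10.54 and 9.99 at 6 h, 9.50, 9.77, 9.32, 9.63 and 9.96 at 24 h, and 8.29, 8.31, 8.31, 8.39 and 8.43 at 48 h. Arrays of WT cells gave 8.85, 8.36, 8.59, 8.62 and 8.58 at 0 h, 10.61, 10.48, 10.55, 10.66 and 10.35 at 6 h, 9.40, 9.25, 9.46, 9.27 and 9.47 at 24 h, and 8.59, 8.16, 8.31, 8.15 and 8.50 at 48 h. The 6 h arrays were highest and the 24 h arrays came next without overlap, and at 48 h both genotypes overlapped their 0 h arrays. The 6 h difference was 1.62, SE 0.13, adjusted p = 7.2e-13 in Bank1-/- and 1.93, SE 0.13, adjusted p = 3.8e-15 in WT. Compared with 0 h, its difference at 48 h was -0.27, SE 0.13, adjusted p = 0.0967 in Bank1-/- and -0.26, SE 0.13, adjusted p = 0.103 in WT.

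Wdr43 belongs to the part of the processome that binds the nascent precursor (probe ILMN_1256698). Log2 intensities in Bank1-/- were 9.07, 9.00, 8.88, 9.05 and 9.86 at 0 h, 10.29, 10.86, 10.44, 11.08 and 10.29 at 6 h, 10.00, 10.49, 9.86, 10.30 and 10.25 at 24 h, and 8.18, 8.13, 8.00, 8.17 and 8.38 at 48 h. The values in WT were 9.14, 8.91, 8.59, 8.82 and 8.88 at 0 h, 11.25, 11.19, 10.96, 11.25 and 10.63 at 6 h, 9.99, 9.92, 9.94, 10.02 and 10.01 at 24 h, and 7.92, 7.85, 7.97, 7.76 and 8.11 at 48 h. The 48 h arrays were below all others in both genotypes, and the 24 h arrays of Bank1-/- overlapped those of 6 h. Between 6 h and 0 h the difference was 1.42, SE 0.15, adjusted p = 5.0e-10 in Bank1-/- and 2.19, SE 0.15, adjusted p = 4.9e-15 in WT.

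The other 7 tested small subunit members ranged at 6 h from Nop14, with 0.50, to Tsr1, with 1.73, in Bank1-/-, and from Rrp12, with 0.59, to Bms1, with 1.87, in WT. Heatr1, a large scaffold of the processome, and Rcl1 rose by 1.26 and 1.63 in Bank1-/- and by 1.49 and 1.77 in WT. Wdr3, another processome component, rose by 0.62 in Bank1-/- and by 0.80 in WT. Nop14 was the small subunit member furthest below its starting level at 48 h, with -2.21, SE 0.15, adjusted p = 1.1e-14 in Bank1-/- and -1.74, SE 0.15, adjusted p = 4.3e-12 in WT.

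The large subunit class was the biggest, with 13 members, of which 11 were tested, and all 11 rose at 6 h and fell by 48 h in both genotypes. Noc2l, the nucleolar complex protein that escorts early large subunit particles, was read by probe ILMN_2851005. For Noc2l the Bank1-/- arrays gave log2 intensities of 9.85, 9.86, 9.80, 10.02 and 10.47 at 0 h, 12.12, 11.91, 11.96, 12.20 and 11.87 at 6 h, 10.58, 11.04, 10.45, 10.90 and 11.13 at 24 h, and 9.58, 9.41, 9.39, 9.42 and 9.33 at 48 h. WT arrays were at 9.99, 9.87, 9.88, 9.72 and 9.77 at 0 h, 12.16, 12.08, 11.96, 12.17 and 12.21 at 6 h, 10.37, 10.66, 10.65, 10.61 and 10.73 at 24 h, and 9.14, 9.25, 9.41, 9.19 and 9.48 at 48 h. All 6 h arrays stood above all others, and the 48 h arrays lay below the 0 h arrays, in both genotypes. Its rise at 6 h was 2.01, SE 0.12, adjusted p = 3.4e-17 in Bank1-/- and 2.27, SE 0.12, adjusted p = 6.6e-19 in WT. From 6 to 48 h Noc2l changed by -2.58, SE 0.12, adjusted p = 5.5e-21 in Bank1-/- and -2.82, SE 0.12, adjusted p = 3.4e-22 in WT.

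Grwd1, which binds ribosomal protein and histones, was read by probe ILMN_1215755. Grwd1 had Bank1-/- log2 intensities of 7.85, 7.95, 7.72, 7.73 and 9.10 at 0 h, 10.31, 10.16, 10.02, 10.09 and 9.92 at 6 h, 9.18, 9.63, 9.07, 9.52 and 9.47 at 24 h, and 7.16, 7.09, 7.23, 7.24 and 7.29 at 48 h. The WT arrays read 8.37, 7.89, 8.10, 7.97 and 7.90 at 0 h, 10.57, 10.58, 10.62, 10.53 and 10.38 at 6 h, 8.95, 9.21, 9.18, 9.18 and 9.34 at 24 h, and 7.24, 7.10, 7.04, 6.94 and 7.12 at 48 h. In WT no 2 times overlapped, and in Bank1-/- only library number 5 at 0 h reached the 24 h arrays. The 6 h difference was 2.03, SE 0.16, adjusted p = 8.4e-14 in Bank1-/- and 2.49, SE 0.16, adjusted p = 2.0e-16 in WT. Grwd1 then fell 7.46-fold by 48 h in Bank1-/- and 10.9-fold in WT.

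Pes1, a core of the complex with Bop1 and Wdr12 that matures the large subunit RNA, was singled out after its values were seen for a small rise and a deep fall. The Bank1-/- log2 intensities of Pes1 were 10.28, 10.45, 10.43, 10.24 and 9.60 at 0 h, 10.83, 10.41, 10.57, 10.44 and 10.91 at 6 h, 9.35, 9.19, 9.14, 9.12 and 9.15 at 24 h, and 7.46, 7.50, 7.52, 7.68 and 7.46 at 48 h. WT cells had 10.14, 10.04, 10.01, 10.14 and 10.41 at 0 h, 10.40, 10.44, 10.27, 10.66 and 10.96 at 6 h, 9.70, 9.45, 9.41, 9.53 and 9.65 at 24 h, and 7.47, 7.41, 7.37, 7.52 and 7.60 at 48 h. The 6 h arrays overlapped those of 0 h in both genotypes, and each later time lay below the one before it. Between 6 h and 0 h the difference was 0.43, SE 0.13, adjusted p = 0.00339 in Bank1-/-, 0.28, SE 0.11, adjusted p = 0.0258 without library number 5, and 0.40, SE 0.13, adjusted p = 0.00584 in WT. At 48 h against 0 h Pes1 was 6.39-fold lower in Bank1-/- (-2.68, SE 0.13, adjusted p = 2.2e-19) and 6.39-fold lower in WT (-2.67, SE 0.13, adjusted p = 1.4e-19), the deepest fall of the list in each genotype. Bop1 rose by 1.29 at 6 h in Bank1-/- and by 1.87 in WT, and kept 86.1% of that rise at 24 h in Bank1-/- and 93.1% in WT.

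Ebna1bp2, related to the yeast large subunit factor Ebp2, had the largest 6 h rise of the list in Bank1-/-, 2.71, SE 0.20, adjusted p = 2.2e-14, against 2.55, SE 0.20, adjusted p = 6.6e-14 in WT. Nop2, a ribosomal RNA methyltransferase, rose by 2.09 in Bank1-/- and 2.56 in WT. The large subunit assembly factors Rrs1, Wdr74, Nip7 and Rrp1b rose by 1.84, 1.77, 1.96 and 1.62 in Bank1-/-. In WT their rises were 2.17, 2.25, 2.09 and 2.63. Ftsj3, related to the yeast methyltransferase Spb1 of large subunit assembly, rose by 2.16 in Bank1-/- and 1.43 in WT.

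Without library number 5, the 6 h differences in Bank1-/- were 2.49 for Polr1b, 1.30 for Polr1a, 2.70 for Rrp9, 2.13 for Nop56, 1.48 for Gar1, 1.89 for Ncl and 1.21 for Mybbp1a. They were 1.78 for Nob1, 1.59 for Wdr43, 2.13 for Noc2l, 2.29 for Grwd1, 2.31 for Ftsj3, 1.84 for Tsr1 and 3.03 for Ebna1bp2, and each passed the test.

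By class, the median 6 h rise in Bank1-/- was 1.16 for polymerase I, 1.87 for the box C/D and U3 proteins, 1.28 for the box H/ACA proteins, 1.10 for the abundant nucleolar proteins, 1.42 for the small subunit and 1.96 for the large subunit factors. In WT the medians were 1.85, 2.57, 2.25, 1.30, 1.49 and 2.25 in the same order. At 48 h against 0 h, in Bank1-/- 1 of 3 polymerase I, 3 of 3 box C/D and U3, 1 of 3 box H/ACA, 4 of 6 abundant nucleolar, 7 of 9 small subunit and 9 of 11 large subunit members were lower, where 25.6% of all genes were. In WT the counts were 1 of 3, 2 of 3, 1 of 3, 4 of 6, 6 of 9 and 8 of 11 in the same order, where 26.0% of all genes were lower. No difference between classes was tested.

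Other probes of the same genes were compared with the chosen ones. Of 24 further probes of 15 members that passed the filter, 23 changed in the direction of the chosen probe at 6 h against 0 h in Bank1-/- and 24 in WT, and all 24 did at 48 h against 6 h in each genotype. The 1 exception was the Mybbp1a probe given above. From 6 to 24 h 16 of 24 had the sign of the chosen probe in Bank1-/- and 22 in WT. In Bank1-/- 3 probes were called higher at 24 h where the chosen probe was called lower: 0.62 for Gar1 (adjusted p = 0.0241), 1.17 for Mybbp1a (adjusted p = 1.8e-05) and 0.73 for Nop2 (adjusted p = 0.0164). From 24 to 48 h 23 of 24 had the same sign in each genotype, and in Bank1-/- a Polr1a probe was called higher, at 0.30 (adjusted p = 0.0385). Between genotypes at 6 h 18 of 24 had the sign of the chosen probe, and 1 was called higher in Bank1-/- and 9 lower. For Mybbp1a, whose chosen probe read 0.00, other probes read -1.38 (adjusted p = 2.8e-05), -0.92 (adjusted p = 0.00302) and -0.08 (adjusted p = 0.799).

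On the chosen probes, 11 members differed between genotypes at 6 h. At 6 h 6 of 35 members were higher in Bank1-/- and 5 lower (background 14.5% higher and 7.57% lower), with a median log2 difference of 0.05, the same as that of all genes. The 24 other probes, from 15 members, had 1 called higher and 9 lower. The background is that of chosen probes, and no share over all other probes is given here. At 0 h, 24 h and 48 h 0 of 35 were called in either direction (background 0.719% higher and 0.793% lower at 0 h, 0.0423% higher and 0.0635% lower at 24 h, 0.0952% higher and 0.0741% lower at 48 h). The 95% intervals of the members' differences ran at the widest from -0.44 to 1.06 at 0 h, from -1.21 to 0.61 at 24 h and from -0.83 to 0.82 at 48 h. With array brightness as a covariate, 0 members were called at 6 h (background 2.26% higher and 1.66% lower), and with the covariate and without library number 5 it was 3. The covariate gave 4 members higher at 0 h (background 2.64% higher and 1.84% lower), where the fit above called 0. Array weights gave 2 higher and 11 lower at 24 h, where it also called 0. The shares of all genes are not given here for the array weight fit or the fit that called 3, so these counts are not read as a result about the members.

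The 6 members higher in Bank1-/- at 6 h were Ftsj3, Nolc1, Dkc1, Tsr1, Polr1b and Ddx21. Ftsj3 had the smallest p. Its log2 intensities in Bank1-/- cells were 8.51, 8.32, 8.48, 8.26 and 9.13 at 0 h, 10.95, 10.21, 10.96, 10.16 and 11.22 at 6 h, 9.47, 8.96, 9.45, 9.34 and 9.08 at 24 h, and 7.66, 7.90, 8.07, 7.68 and 7.87 at 48 h. On the WT arrays it was at 8.76, 8.20, 8.59, 8.58 and 8.45 at 0 h, 9.77, 10.06, 9.82, 9.62 and 10.49 at 6 h, 9.53, 9.63, 9.56, 9.61 and 9.48 at 24 h, and 8.23, 7.77, 8.18, 8.08 and 7.87 at 48 h. At 6 h the groups overlapped: the Bank1-/- arrays numbered 1, 3 and 5 lay above every WT array, and the others within the WT range. Those 3 arrays had mean raw intensities of 507, 443 and 511, where the other Bank1-/- 6 h arrays had 348 and 290. The 6 h genotype difference was 0.75, SE 0.17, adjusted p = 0.00242, a 1.68-fold higher level in Bank1-/-. The others differed by 0.69, SE 0.16, adjusted p = 0.00258 for Nolc1, 0.56, SE 0.16, adjusted p = 0.0121 for Dkc1 and 0.52, SE 0.16, adjusted p = 0.0165 for Polr1b. Nolc1 was above background on 5 arrays in Bank1-/- and 2 in WT at 6 h, and Dkc1 on 3 in Bank1-/- and 1 in WT, so the sizes of these differences are uncertain. Both entered the test only through the groups where they were bright.

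Tsr1, a GTPase-like factor of late small subunit assembly, had the smallest p of the list between genotypes at 24 h. Bank1-/- arrays had Tsr1 at log2 intensities of 8.67, 8.46, 8.66, 8.49 and 9.13 at 0 h, 10.89, 9.99, 10.62, 10.03 and 10.51 at 6 h, 9.39, 8.59, 9.48, 8.88 and 8.88 at 24 h, and 7.72, 7.76, 7.78, 7.92 and 7.77 at 48 h. Arrays of WT cells gave 8.66, 8.64, 8.61, 8.62 and 8.59 at 0 h, 9.93, 9.66, 9.55, 9.88 and 10.38 at 6 h, 9.61, 9.61, 9.49, 9.62 and 9.29 at 24 h, and 8.06, 7.84, 7.96, 8.22 and 7.88 at 48 h. The groups overlapped at 6 h and at 24 h, with 3 Bank1-/- arrays above every WT array at 6 h and 3 below every WT array at 24 h. The difference between Bank1-/- and WT was 0.53, SE 0.16, adjusted p = 0.0147 at 6 h and -0.48, SE 0.16, adjusted p = 0.362 at 24 h. Another Tsr1 probe gave -0.99 at 6 h (adjusted p = 0.184). Ddx21 differed by 0.47, SE 0.14, adjusted p = 0.0127 on the chosen probe and by -0.99 on its other probe (adjusted p = 0.00271), so the probes of Ddx21 disagreed.

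The 5 members lower in Bank1-/- at 6 h were Nop56, Gnl3, Gar1, Wdr43 and Grwd1. Of these Grwd1 was the 1 whose arrays did not overlap, with 9.92 to 10.31 in Bank1-/- and 10.38 to 10.62 in WT (-0.44, SE 0.16, adjusted p = 0.04). Gar1 differed by -0.54, SE 0.15, adjusted p = 0.0106 and by -1.96 on its other probe (adjusted p = 2.4e-07). Nop56 differed by -0.68, SE 0.23, adjusted p = 0.0311, Gnl3 by -0.58, SE 0.20, adjusted p = 0.0304 and Wdr43 by -0.47, SE 0.15, adjusted p = 0.0276.

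**Figure D5:**
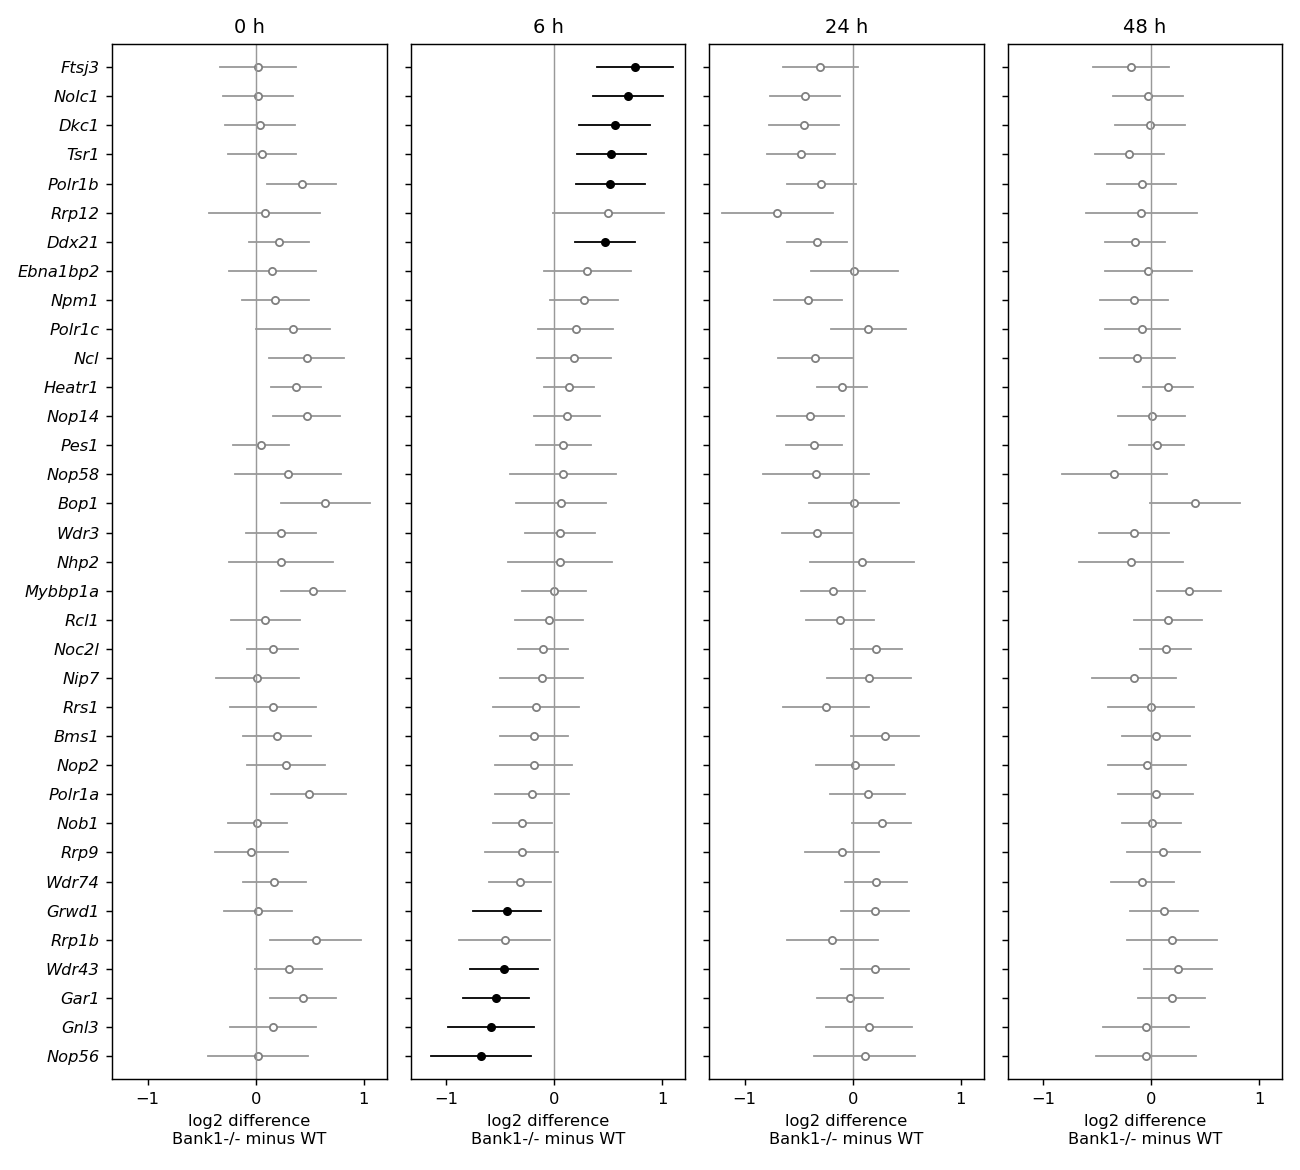
Log2 difference of Bank1-/- minus WT for each of the 35 tested members at 0, 6, 24 and 48 h, with 95% intervals. Filled points passed the limma test at an adjusted p under 0.05. The 11 filled points are all at 6 h, from Nop56 at -0.68 to Ftsj3 at 0.75.

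At 0 h the smallest p belonged to Mybbp1a, with a difference of 0.53, SE 0.15, adjusted p = 0.0539, or 0.36, SE 0.13, adjusted p = 0.188 without library number 5. The median member difference at 0 h was 0.18, with 34 of 35 above 0, and 0.00 without that library. At 48 h the smallest p was again that of Mybbp1a, 0.35, SE 0.15, adjusted p = 1.

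In the fit of all groups, the size of the 6 h rise differed between genotypes for 3 of 35 members and the 6 to 48 h change for 6. Leaving out 1 array gave 1 member for the rise (WT 0 h number 3) to 10 (WT 6 h number 5), and 1 (Bank1-/- 6 h number 3 or WT 6 h number 2) to 8 for the 6 to 48 h change, and a fit of only the groups compared gave 0 for the rise. The rise was smaller in Bank1-/- for Gar1 (-0.98, SE 0.21, adjusted p = 0.00524), Rrp1b (-1.01, SE 0.29, adjusted p = 0.0266) and Wdr43 (-0.77, SE 0.22, adjusted p = 0.0237), against a background of 3.79% lower and 5.63% higher. Leaving out library number 5, these 3 passed again, at -0.78, -0.77 and -0.60. Nolc1 at 0.76 and Ftsj3 at 0.87 passed as well (background 5.02% lower and 7.58% higher). With array brightness as a covariate Gar1 alone passed, at -0.91 (adjusted p = 0.019). Gar1 lies on chromosome 3, as Bank1 does, and the part of DNA kept around Bank1 in the backcrossed line was not tested. Of the 24 other probes 0 were called higher and 9 lower, with no share over all such probes given here.

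On the chosen probes the fall from 6 to 48 h was deeper in Bank1-/- for Ftsj3 (-0.94, SE 0.24, adjusted p = 0.0144), Tsr1 (-0.73, SE 0.22, adjusted p = 0.0297), Nolc1 (-0.72, SE 0.23, adjusted p = 0.0363) and Ddx21 (-0.62, SE 0.19, adjusted p = 0.0344). With the mean of all probes the direction reversed for Tsr1, at 0.19, and Ddx21, at 0.14. Nolc1 was above background on 0 arrays at 48 h. The fall was shallower for Gar1 (0.72, SE 0.21, adjusted p = 0.0269) and Wdr43 (0.71, SE 0.22, adjusted p = 0.0307). Of the 24 other probes 5 were called higher and 1 lower, again without such a share. The background was 7.07% lower and 3.71% higher, and with array brightness as a covariate 0 members passed. These differences share the 6 h arrays with the genotype comparison at 6 h.

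The rest of the pathway moved the same way. Of 137 further ribosome biogenesis genes in 5 lists 123 were tested, and at 6 h against 0 h 104 were higher and 4 lower in Bank1-/- and 98 higher and 3 lower in WT. Over all genes 31.2% were higher and 29.5% lower in Bank1-/-, and 33.0% higher and 33.5% lower in WT. The median log2 differences of the 123 were 1.04 in Bank1-/- and 0.99 in WT. From 6 to 48 h 113 were lower and 2 higher in Bank1-/-, and 111 lower and 3 higher in WT, where 32.6% of all genes were lower in Bank1-/- and 32.1% in WT. Against 0 h, 78 were lower in Bank1-/- at 48 h and 57 in WT, with 5 higher in Bank1-/- and 6 in WT, where 25.6% of all genes were lower in Bank1-/- and 26.0% in WT.

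The genes named from these lists were picked for the smallest p-values of their list at 6 h against 0 h in WT. Of the other polymerase I genes 10 were tested, and 7 were higher at 6 h in Bank1-/- and 6 in WT. There 0 were lower in Bank1-/- and 1 in WT, and the median log2 difference was 0.72 in Bank1-/- and 0.61 in WT. Polr1e, a polymerase I subunit, rose by 2.23 in Bank1-/- and 3.05 in WT. Wdr46 and Tbl3, of the small subunit processome, rose by 2.21 and 1.73 in Bank1-/- and by 2.94 and 2.33 in WT, in a list where 38 of 43 rose in Bank1-/- and 35 in WT. The ribosomal RNA methyltransferase Nsun5 rose by 1.99 in Bank1-/- and 2.94 in WT, among large subunit genes of which 38 of 46 rose in Bank1-/- and 37 in WT. Shq1, an assembly chaperone of the box H/ACA particle, rose by 1.32 in Bank1-/- and 1.75 in WT. Exosc5 of the RNA exosome, which trims the precursor, rose by 1.76 in Bank1-/- and 2.15 in WT, and 13 of 15 genes of its list rose in Bank1-/- and 11 in WT.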

How the data were processed

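Total RNA of mouse splenic B cells was amplified, biotin-labelled and hybridised to Illumina arrays, per the labels' protocols. The authors deposited raw bead intensity values for each array, and a value table that the authors deposited on a log2 scale, with a column median of 6.87 and its direction and centring not stated. The image processing is not given in the sources used here. Of the deposited columns 8 match no array of the series and were not used. The raw intensities were corrected with normexp (offset 50), quantile normalized and taken to log2 with limma 3.58.1 in R 4.3.3. A probe counted as detected above the 99th percentile of the olfactory receptor probes of its array, and a gene was tested where its chosen probe was detected on at least 5 of 40 arrays. Of 45281 probes 34885 have 1 gene symbol, 18 several and 10378 none.

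One limma fit with a coefficient for each of the 8 groups (32 residual degrees of freedom) was used for 16 comparisons, with Benjamini-Hochberg adjustment over 9453 genes and a threshold of 0.05. Every adjusted p of a gene is from limma. The p-values set a difference against a spread of the gene that is pooled over the 5 biological replicates of all 8 groups and moderated by limma. They do not measure the spread within the groups compared alone. Members, role classes, other gene lists and tests were chosen with earlier results of these data known. Members named with array values had the 2 smallest p-values of their class at 6 h against 0 h in WT, or the smallest p of a genotype comparison. Pes1, Npm1, Dkc1 and the further members named with differences were chosen after their values were seen. Every probe of a member that passed the filter was also fitted. Replicate numbers were not used to pair the arrays in the main fit. Same-numbered arrays had correlations of their deviations between -0.40 and 0.45, and in no pair of groups were all 5 over 0.1. The sample titles do not say whether same-numbered arrays share a mouse, and these correlations cannot decide it. Alternatives are in the closing section. No 2 arrays held identical values.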

Additional observations from a re-analysis of the deposited data

Results flagged for a closer look

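Within each group of 5 arrays, an array was picked out when its gap to the nearest other array was large against the range of the group by Dixon's 95% critical value. Chance flags about 1 in 20 groups, and 15 of 120 groups tested were picked out. Of these 10 were the library labelled Bank1-/- 0 h number 5, which read 10.10 for the mean of the 35 members (others 9.18 to 9.35), 9.07 for Polr1b (others 8.20 to 8.42), 9.60 for Rrp9 (8.23 to 8.57), 11.94 for Nhp2 (9.71 to 10.08) and 11.52 for Ncl (10.28 to 10.37). It also read 12.06 for Mybbp1a (others 11.15 to 11.35), 9.25 for Nob1 (8.38 to 8.53), 9.86 for Wdr43 (8.88 to 9.07), 9.10 for Grwd1 (7.72 to 7.95) and 9.13 for Ftsj3 (8.26 to 8.51).

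The remaining 5 were WT arrays. Array number 1 at 48 h had a list mean of 8.58 (others 8.46 to 8.50). Array number 5 at 6 h read 11.02 for Polr1b (others 9.95 to 10.18) and 11.76 for Ncl (others 12.07 to 12.17). Array number 1 read 9.54 for Nop56 at 0 h (others 8.67 to 8.89) and 12.04 for Gar1 at 24 h (others 12.32 to 12.38).

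The change over time differed between Bank1-/- and WT in the limma fit for 7 members. From 0 to 6 h the difference of the log2 changes, Bank1-/- minus WT, was -0.98 for Gar1, -0.77 for Wdr43 and -1.01 for Rrp1b. From 6 to 48 h it was -0.94 for Ftsj3, -0.73 for Tsr1, -0.72 for Nolc1, -0.62 for Ddx21, 0.72 for Gar1 and 0.71 for Wdr43. The 6 h arrays differ in brightness between the genotypes, and with brightness as a covariate Gar1 from 0 to 6 h alone passed.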

How the results depend on the processing

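Over all alternatives, 269 counts of members called stayed within 1.5 times the main count and 43 did not, and of the values of named members 1351 kept their direction and side of the threshold, 131 kept the direction only and 4 reversed. The 4 reversals came with the mean of all probes of a gene: at 6 h Ddx21 read -0.26 and Tsr1 -0.23 between Bank1-/- and WT, and the difference of the 6 to 48 h change was 0.14 for Ddx21 and 0.19 for Tsr1. Between genotypes at 0 h, where 0 members were called, the deposited table gave 1, no background correction 1, array weights 3, brightness 4, and brightness without library number 5 gave 1. At 6 h, with 11 called, brightness gave 0, brightness without library number 5 gave 3 and a fit of only the groups compared gave 2. At 24 h array weights gave 13 (2 higher, 11 lower) instead of 0. For the difference of the 0 to 6 h change, with 3 called, the deposited table and no background correction gave 5 each, brightness 1, array weights 14, only the groups compared 0, and the mean of all probes 6. With the replicate number as a block it was 5. For the 6 to 48 h change, with 6 called, brightness gave 0 and array weights 15. The shares of all genes called in these alternatives are not given in this section, and the causes were not tested. The setting that combines brightness with leaving out library number 5 was chosen after seeing the data.

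Leaving out 1 array at a time gave counts of 35 to 35 at 6 h against 0 h in Bank1-/- and 32 to 34 in WT, 35 to 35 and 33 to 34 at 48 h against 6 h, 26 to 30 and 21 to 22 at 24 h against 6 h, 32 to 33 and 35 to 35 at 48 h against 24 h, and 24 to 27 and 23 to 23 at 48 h against 0 h, Bank1-/- before WT in each pair. Between genotypes it gave 0 to 3 at 0 h (3 without Bank1-/- 0 h array number 2), 5 to 13 at 6 h (5 without Bank1-/- array number 5, 6 without Bank1-/- number 3 or WT number 1 or 3, 7 without WT number 2, and 13 without Bank1-/- number 4 or WT number 5), 0 to 0 at 24 h and 0 to 0 at 48 h. The difference of the 0 to 6 h change gave 1 (without WT 0 h number 3) to 10 (without WT 6 h number 5), with 5 without Bank1-/- 0 h number 3 or 5, and 6 or 7 without Bank1-/- 6 h number 2 or 4. That of the 6 to 48 h change gave 1 (without Bank1-/- 6 h number 3 or WT 6 h number 2) to 8, and 2 or 3 without Bank1-/- 6 h number 1 or 5, Bank1-/- 48 h number 1 or 4, WT 6 h number 1 or 3 or WT 48 h number 1 or 4. Utp20, Wdr12 and Nop16 were too dim to test, and Dkc1 and Nolc1 were near background.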
